A study of Mus musculus with 12 samples.

Results

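The monocarboxylate transporter genes of the SLC16 family were examined in mouse hearts on 12 Affymetrix microarrays, 3 in each of 4 groups. The set held 7 genes (Slc16a1, Slc16a3, Slc16a6, Slc16a7, Slc16a9, Slc16a10 and Slc16a13), which 13 of the 45037 probe sets named, out of 18193 genes named on the arrays. A probe set belonged to the set when the probe annotation gave it one of these symbols and no other gene. The groups were untreated WT hearts, untreated hearts labelled CHIP knockout, WT hearts after doxorubicin (DOX) and knockout-labelled hearts after DOX. DOX is an anthracycline anti-tumour drug that damages the heart. The labels describe male C57BL/6J mice of 8 to 10 weeks, a single injection of 15 mg/kg DOX, and hearts removed at day 5. They name no agent for the untreated mice. The study's own account gives another DOX dose, another age and saline controls, and it describes cardiac-specific CHIP transgenic (CHIP-TG) mice with WT littermates in place of knockouts. The promoter of that transgene and any pooling of hearts are not given in the sources used here. CHIP, the product of Stub1, is a co-chaperone and ubiquitin ligase.

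Slc16a6 and Slc16a7 were chosen by a difference between the genotypes after DOX on these same arrays, so that their values in that comparison describe the choice and are given with no test. How the other 5 genes were picked is not given in the sources used here. The differences without treatment came from 6 other arrays, but their p-values use a spread estimated over all 12 arrays, the DOX arrays included. The 2 DOX responses and the interaction share the DOX arrays with the comparison that chose the genes. The labels call the arrays of a group biological replicates, and each p-value below measures the spread between these hearts only.

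The label of the knockout groups did not match the RNA. The brighter Stub1 probe set read 1857, 1831 and 1790 in the 3 untreated WT hearts and 8762, 9817 and 9655 in the 3 untreated knockout-labelled hearts. After DOX it read 1944, 1950 and 1930 in WT and 5561, 7998 and 8723 in knockout-labelled hearts. Its log2 difference without treatment was 2.34 (standard error 0.13, adjusted p = 2.2e-04 from limma). A second Stub1 probe set lay between 1037 and 1402 in all 12 hearts (log2 difference without treatment -0.04, adjusted p = 0.94 from limma). Every direction given below as knockout-labelled against WT therefore sets hearts with a higher Stub1 signal on one probe set against WT hearts. The arrays were alike in scale, with median intensities of 28.9 to 30.4, and the lowest mean correlation of an array with its own group was 0.990, in replicate 3 of the untreated knockout-labelled hearts. Cardiomyocyte markers summed to 97729 to 102128 in untreated WT and 79865 to 97131 in DOX-treated WT hearts, and to 97123 to 98965 and 87520 to 94128 in knockout-labelled hearts, so that the sums were lower after DOX with no overlap. Over the 12 hearts, 5 of 7 skeletal muscle markers and 3 of 4 measured adipocyte markers had a mean intensity under 32.

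The SLC16 proteins carry small organic acids and related compounds across membranes. The best known of them, MCT1 (Slc16a1), MCT2 (Slc16a7) and MCT4 (Slc16a3), move lactate, pyruvate and ketone bodies together with a proton, and they need a partner glycoprotein, basigin or embigin, to reach the cell surface. The heart takes up lactate and ketone bodies as fuel, mainly through MCT1. Other members have other cargo. The product of Slc16a6 has been linked to ketone body export, that of Slc16a9 to carnitine, and that of Slc16a10 to aromatic amino acids and thyroid hormone, while the product of Slc16a13 is less well characterised.

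The signals of the 13 probe sets differed widely. The brighter Slc16a1 probe set had a mean of 3835 over the 12 hearts, above 98.8% of all probe sets. Those of Slc16a6 and Slc16a7 had means of 116 and 113, above 73.6% and 73.2% of all probe sets. In all, 8 of the 13 had a mean of at least 32, and the other 5 lay under it, as did 51.4% of all probe sets on the arrays. The dim ones were the second Slc16a1 probe set, 1 of 3 for Slc16a9, 1 of 4 for Slc16a10, and the only ones for Slc16a13 and Slc16a3. Intensities of different probe sets are not levels on a common scale, and each comparison below is within a probe set. Log2 differences are on the scale of log2(intensity + 32), which understates the change of a dim probe set. For Slc16a6 and Slc16a7 it does so to a lesser degree.

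**Figure D1:**
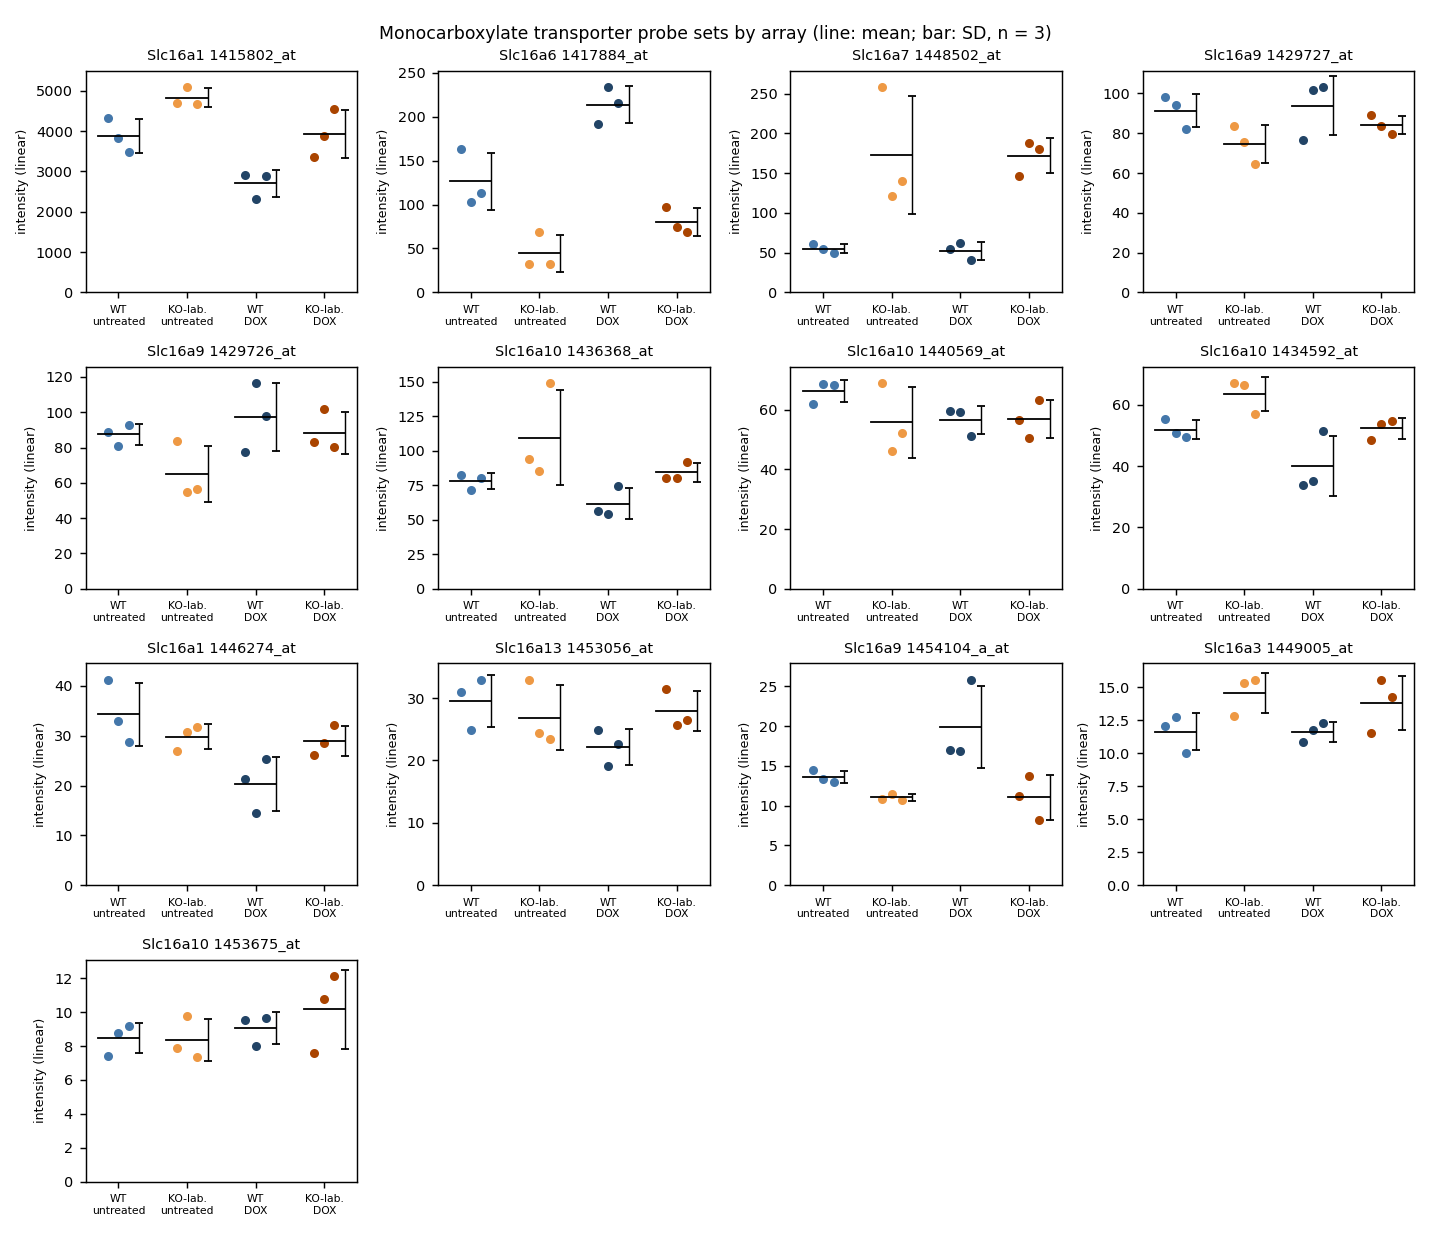
Intensity on a linear axis for each of the 13 probe sets in the 12 hearts, 1 panel per probe set, with points for single hearts, a line for the group mean and a bar for the SD (n = 3). Slc16a6 is lowest and Slc16a7 highest in the knockout-labelled hearts, with or without DOX, while the brighter Slc16a1 probe set is lowest in WT hearts after DOX.

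Without treatment, Slc16a7 was higher and Slc16a6 lower in knockout-labelled than in WT hearts, and these were the members that passed the test. Thus 2 of the 13 probe sets were called at an adjusted p under 0.05 from limma, against 1.81% of all probe sets (817 of 45037). These 2 were the genes chosen by the genotype difference after DOX, so that their share cannot be read as a result about the family. With probe sets of a mean under 64 left out, limma called 1357 of 16087. At an unadjusted p under 0.05 limma gave 7 of the 13, against 14.1% of all probe sets. The 2 genotypes did not overlap at all in 7 of the 13, 5 of them higher and 2 lower in knockout-labelled hearts, against 19.4% of all probe sets. The median log2 difference of the 13 was -0.07, and that of all probe sets was -0.00.

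Slc16a7 encodes MCT2, a carrier with high affinity for pyruvate. Its probe set read 61.3, 54.2 and 49.5 in untreated WT hearts and 258, 121 and 140 in untreated knockout-labelled hearts. After DOX it read 54.0, 62.4 and 40.2 in WT and 147, 188 and 181 in knockout-labelled hearts. All 6 knockout-labelled hearts were thus above all 6 WT hearts, and the highest single value was replicate 1 of the untreated knockout-labelled hearts. The means without treatment were 173 ± 74.3 (SD, n = 3) in knockout-labelled and 55.0 ± 5.96 (SD, n = 3) in WT hearts. The log2 difference was 1.18 (standard error 0.21, 95% confidence interval 0.72 to 1.65, adjusted p = 0.026 from limma). In order of means, untreated and DOX-treated knockout-labelled hearts came first and untreated and DOX-treated WT hearts last, and within each genotype the 2 treatments overlapped.

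Slc16a6 encodes MCT7. Its probe set read 163, 103 and 113 in untreated WT hearts and 31.9, 68.4 and 32.7 in untreated knockout-labelled hearts. After DOX it read 192, 234 and 216 in WT and 97.8, 74.3 and 68.6 in knockout-labelled hearts. All 6 knockout-labelled hearts were below all 6 WT hearts, the reverse of Slc16a7. The means without treatment were 44.3 ± 20.9 (SD, n = 3) in knockout-labelled and 127 ± 32.3 (SD, n = 3) in WT hearts. The log2 difference was -1.07 (standard error 0.19, 95% confidence interval -1.50 to -0.64, adjusted p = 0.029 from limma). In order of means the groups ran from DOX-treated WT through untreated WT and DOX-treated knockout-labelled to untreated knockout-labelled hearts. No neighbours in that order overlapped, although the last pair came as close as 68.6 and 68.4, and neither DOX response passed the test.

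Both calls rested on few hearts. The call of Slc16a7 was lost without any 1 of the 3 untreated WT hearts (adjusted p = 0.063, 0.10 and 0.094 without replicates 1, 2 and 3) or without replicate 3 of the untreated knockout-labelled hearts (0.052), and it held in the other 8 of 12 limma fits that left out 1 heart. The call of Slc16a6 was lost without WT untreated replicates 1, 2 and 3 (adjusted p = 0.077, 0.082 and 0.079 from limma) and without replicates 1 and 3 of the untreated knockout-labelled hearts (0.076 and 0.091). Both calls were also lost when the 6 untreated arrays were fitted alone (adjusted p = 0.12 for each from limma). The sign of both differences was the same in all 24 alternative analyses, which was largely fixed in advance. As the untreated groups did not overlap, leaving out a heart or changing the added value could not reverse it. Leaving out a DOX heart changed neither difference, only its adjusted p.

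**Figure D2:**
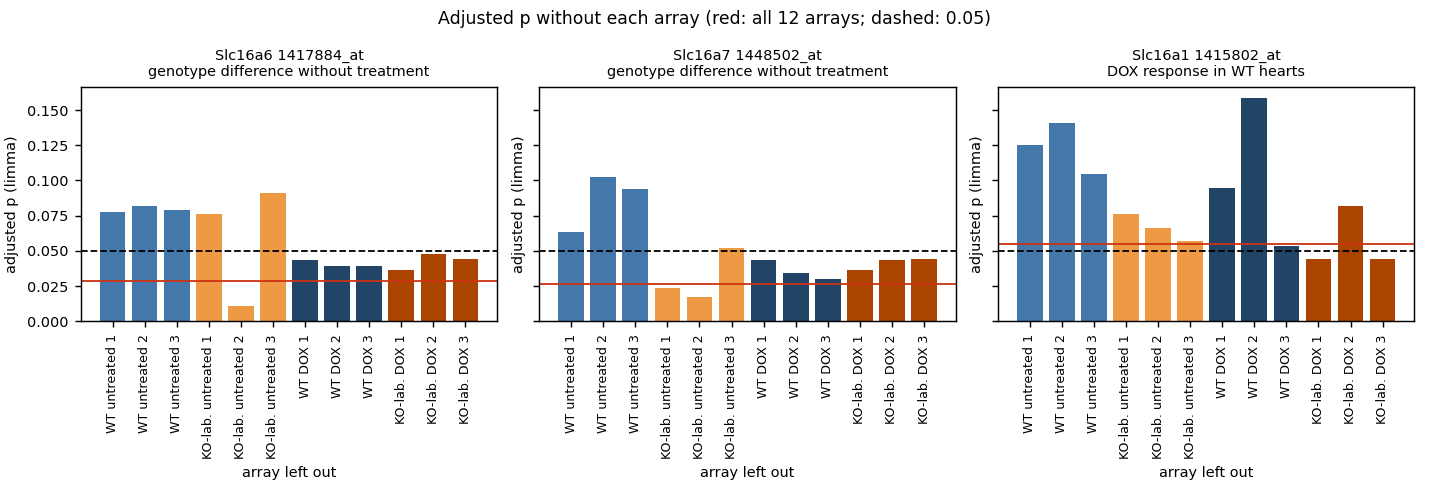
Adjusted p from limma for 3 member results when each of the 12 hearts is left out in turn; bars are coloured by the group of the heart left out, the red line gives the value with all 12 hearts and the dashed line 0.05. The genotype differences of Slc16a6 and Slc16a7 stay under 0.05 in 7 and 8 of the 12 fits, and the DOX response of Slc16a1 in WT hearts falls under it in 2. Leaving out a heart from outside the 2 groups compared changes the adjusted p but not the difference itself.

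Slc16a1, Slc16a3 and Slc16a13 did not pass the test without treatment. The brighter probe set of Slc16a1, the gene of MCT1, read 4326, 3826 and 3490 in untreated WT and 4705, 5093 and 4670 in untreated knockout-labelled hearts, so that the groups did not overlap (log2 difference 0.32, standard error 0.12, adjusted p = 0.27 from limma). Slc16a3, the gene of MCT4, which exports lactate from glycolytic cells, had a dim probe set with values up to 12.7 in WT and from 12.8 to 15.5 in knockout-labelled hearts (log2 difference 0.09, adjusted p = 0.32 from limma). The dim Slc16a13 probe set overlapped between the genotypes, with 24.9 to 32.9 in WT and 23.4 to 32.8 in knockout-labelled hearts.

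The probe sets of one gene did not always point the same way. For Slc16a10, 2 of the 4 probe sets were higher in untreated knockout-labelled hearts with no overlap, at log2 differences of 0.34 and 0.19 (adjusted p = 0.33 and 0.36 from limma). Another had a log2 difference of -0.17 with overlapping groups (adjusted p = 0.45 from limma), and the dim one had -0.00. In the brightest of them replicate 3 of the untreated knockout-labelled hearts read 149, against 71.6 to 94.3 in the 5 other untreated hearts. All 3 Slc16a9 probe sets had negative differences, of -0.21, -0.31 and -0.08 (adjusted p = 0.34, 0.32 and 0.68 from limma), and only the dimmest separated the groups. Without treatment, the second Slc16a1 probe set had a log2 difference of -0.10, opposite in sign to the brighter one (adjusted p = 0.73 from limma).

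Markers of other cells of the heart moved beside these differences. All 6 fibroblast markers were higher in untreated knockout-labelled than in WT hearts, with summed intensities of 12621 to 18426 against 10846 to 12983, and 1 of them, Col1a1, passed the test (log2 difference 1.13, adjusted p = 0.048 from limma). Smooth muscle markers summed to 7356 to 13728 against 1857 to 2781, with Acta2 the 1 of 4 that passed (log2 difference 2.41, adjusted p = 0.014 from limma). All 4 were higher, but their median log2 difference was 0.33. Macrophage markers summed to 4810 to 9822 against 5167 to 6638, with 6 of 8 higher and none called. After DOX all 6 fibroblast markers were again higher, with sums of 11641 to 12475 in knockout-labelled and 9507 to 10740 in WT hearts, and Lum passed the test (log2 difference 1.17, adjusted p = 0.020 from limma). Macrophage sums were 4553 to 5553 and 3092 to 4116, with 7 of 8 higher and none called, and all 6 endothelial markers were lower (median -0.17, none called). The smooth muscle sums were then 2084 to 3599 and 1501 to 2486, but 2 of the 4 markers were higher and 2 lower (median -0.19, none called). The log2 differences of Slc16a7 and Slc16a6 after DOX were 1.28 and -1.14. In whole hearts, fewer cells of a type and less RNA per cell cannot be told apart, and the part of these cell types in the transporter differences was not tested.

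In WT hearts, DOX was followed by lower Slc16a1 and higher Slc16a6 signals, and neither passed the test. None of the 13 probe sets was called, against 3.06% of all probe sets (1379 of 45037), and 6 of the 13 had an unadjusted p under 0.05 from limma, against 18.8% of all. The 3 DOX and the 3 untreated hearts did not overlap in 6 of the 13, 2 of them higher and 4 lower after DOX, against 24.4% of all probe sets. The median log2 response of the 13 was -0.05, against -0.01 over all probe sets.

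The brighter Slc16a1 probe set read 2902, 2319 and 2886 in WT hearts after DOX, all below the lowest untreated WT value of 3490. Its log2 response was -0.52 (standard error 0.12, 95% confidence interval -0.80 to -0.24, adjusted p = 0.055 from limma). This value stood close to the threshold, and it fell under 0.05 in 9 of 24 alternative analyses, over which it ranged from 0.021 to 0.26. The second Slc16a1 probe set read 21.4, 14.5 and 25.2 after DOX and 41.2, 33.0 and 28.7 without treatment, a log2 response of -0.34 in the same direction (adjusted p = 0.063 from limma). Slc16a6 had a mean of 127 ± 32.3 without treatment and 214 ± 21.2 after DOX (SD, n = 3), a log2 response of 0.65 (standard error 0.19, adjusted p = 0.10 from limma). Slc16a7 had overlapping values and a log2 response of -0.05 (95% confidence interval -0.52 to 0.41, adjusted p = 0.94 from limma).

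Among the other members in WT hearts, Slc16a13 read 24.9, 19.1 and 22.6 after DOX, the highest of these just under its lowest untreated value, for a log2 response of -0.18 (adjusted p = 0.21 from limma). The dimmest Slc16a9 probe set read 17.0, 16.9 and 25.8 after DOX and 13.0 to 14.5 without treatment (log2 response 0.18, adjusted p = 0.17 from limma), while the 2 brighter ones overlapped at 0.02 and 0.10. The 3 brighter Slc16a10 probe sets had log2 responses of -0.24, -0.15 and -0.23 (adjusted p = 0.44, 0.42 and 0.18 from limma). Without WT DOX replicate 3, the last of these became -0.33 and passed the test (adjusted p = 0.018 from limma). That was its 1 call in 22 alternative analyses, over which its adjusted p reached 0.44. The same omission raised the calls over all probe sets from 1379 to 2285. Slc16a3 had a response of 0.00.

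Cell markers moved with DOX in WT hearts too. Of the fibroblast markers 5 of 6 were lower, with Lum (log2 response -1.53, adjusted p = 0.0044 from limma) and Dpt (-0.83, adjusted p = 0.045) passing the test, and the sums were 9507 to 10740 after DOX against 10846 to 12983. Of the macrophage markers 7 of 8 were lower, with Cd68 (-0.95, adjusted p = 0.019 from limma) and Csf1r (-0.75, adjusted p = 0.016) passing, and the sums were 3092 to 4116 against 5167 to 6638. All 3 measured erythroid markers were lower, with Alas2 passing (-3.21, adjusted p = 0.025 from limma), and the sums were 35.6 to 56.3 against 212 to 1160. Of the cardiomyocyte markers 5 of 6 were lower and none was called. The part of these shifts in the signals of Slc16a1 and Slc16a6 was not tested.

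In knockout-labelled hearts, DOX was followed by a lower signal on the brighter of the 2 Slc16a1 probe sets and a higher Slc16a6 signal, and again none of the 13 probe sets was called, against 2.2% of all probe sets (990 of 45037). The 3 of 13 at an unadjusted p under 0.05 from limma stood near the 16.2% of all probe sets. The groups did not overlap in 3 of the 13, 1 higher and 2 lower after DOX, against 20.7% of all probe sets. The median log2 response was 0.02, and that of all probe sets was 0.01.

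The brighter Slc16a1 probe set read 3366, 3879 and 4558 in knockout-labelled hearts after DOX, all below the lowest untreated value of 4670, for a log2 response of -0.30 (standard error 0.12, adjusted p = 0.26 from limma). The second Slc16a1 probe set overlapped, with means of 29.8 without treatment and 28.9 after DOX (log2 response -0.02, adjusted p = 0.95 from limma). Slc16a6 had a mean of 80.2 ± 15.5 after DOX and 44.3 ± 20.9 without treatment (SD, n = 3), a log2 response of 0.58 (standard error 0.19, adjusted p = 0.17 from limma). Replicate 2 of the untreated knockout-labelled hearts read 68.4, and when it was left out that response was 0.79 and passed the test (adjusted p = 0.044 from limma). That was the 1 call of this response in 24 alternative analyses, over which its adjusted p reached 0.46. Slc16a7 had a log2 response of 0.04 (95% confidence interval -0.42 to 0.51, adjusted p = 0.96 from limma). One Slc16a9 probe set had a response of 0.32 with overlapping groups (adjusted p = 0.27 from limma), and 1 Slc16a10 probe set had means of 63.5 without treatment and 52.3 after DOX with no overlap (log2 response -0.18, adjusted p = 0.34 from limma).

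Beside these values, all 6 fibroblast markers were lower after DOX in knockout-labelled hearts, with Col1a1 (log2 response -1.25, adjusted p = 0.033 from limma) and Lum (-0.99, adjusted p = 0.018) passing the test. The fibroblast sums were 11641 to 12475 after DOX against 12621 to 18426. All 4 smooth muscle markers were lower, with Acta2 passing (-1.91, adjusted p = 0.025 from limma), and the sums were 2084 to 3599 against 7356 to 13728. Their median log2 response was -0.61. Of the macrophage markers 7 of 8 were lower and none was called. Of the 6 cardiomyocyte markers 4 were lower, and Ryr2, the calcium release channel, passed the test (-0.50, adjusted p = 0.042 from limma). The part of these cell types in the transporter values was not tested.

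The DOX response of the transporter genes was then compared between the genotypes by the interaction term of the same fit. None of the 13 probe sets was called, and the share over all 45037 was 0% as well, with 3914 of them (8.69%) at an unadjusted p under 0.05 from limma. Over the other settings tried, 0 to 5 of all probe sets were called. The response of Slc16a1 differed by 0.22 between the genotypes (95% confidence interval -0.17 to 0.61, adjusted p = 0.75 from limma). That of Slc16a6 differed by -0.07 (-0.68 to 0.54, adjusted p = 0.96 from limma) and that of Slc16a7 by 0.10 (-0.56 to 0.76, adjusted p = 0.95 from limma). Each of these intervals reaches beyond 0.5 in at least 1 direction, so that a difference of that size was not excluded. The lowest p among the 13 belonged to the dim Slc16a1 probe set, whose response differed by 0.32 (adjusted p = 0.53 from limma, 1 of 13 at an unadjusted p under 0.05).

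After DOX, the differences between the genotypes are a description, since this comparison chose Slc16a6 and Slc16a7. The mean of Slc16a7 was 172 ± 21.9 in knockout-labelled and 52.2 ± 11.2 in WT hearts (SD, n = 3), a log2 difference of 1.28 (standard error 0.21). The mean of Slc16a6 was 80.2 ± 15.5 and 214 ± 21.2 (SD, n = 3), a log2 difference of -1.14 (standard error 0.19). The brighter Slc16a1 probe set had means of 3934 ± 598 and 2702 ± 332 (SD, n = 3), a log2 difference of 0.53. The groups did not overlap in 7 of the 13 probe sets, 5 higher and 2 lower in knockout-labelled hearts, against 20.4% of all probe sets. The other 4 were the brightest Slc16a10 probe set (0.32), the dim Slc16a1 probe set (0.22) and Slc16a13 (0.15), all higher, and the dimmest Slc16a9 probe set (-0.27), which was lower. Slc16a3 overlapped at 0.07. The median log2 difference of the 13 was 0.07, and that of all probe sets was 0.01.

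**Figure D3:**
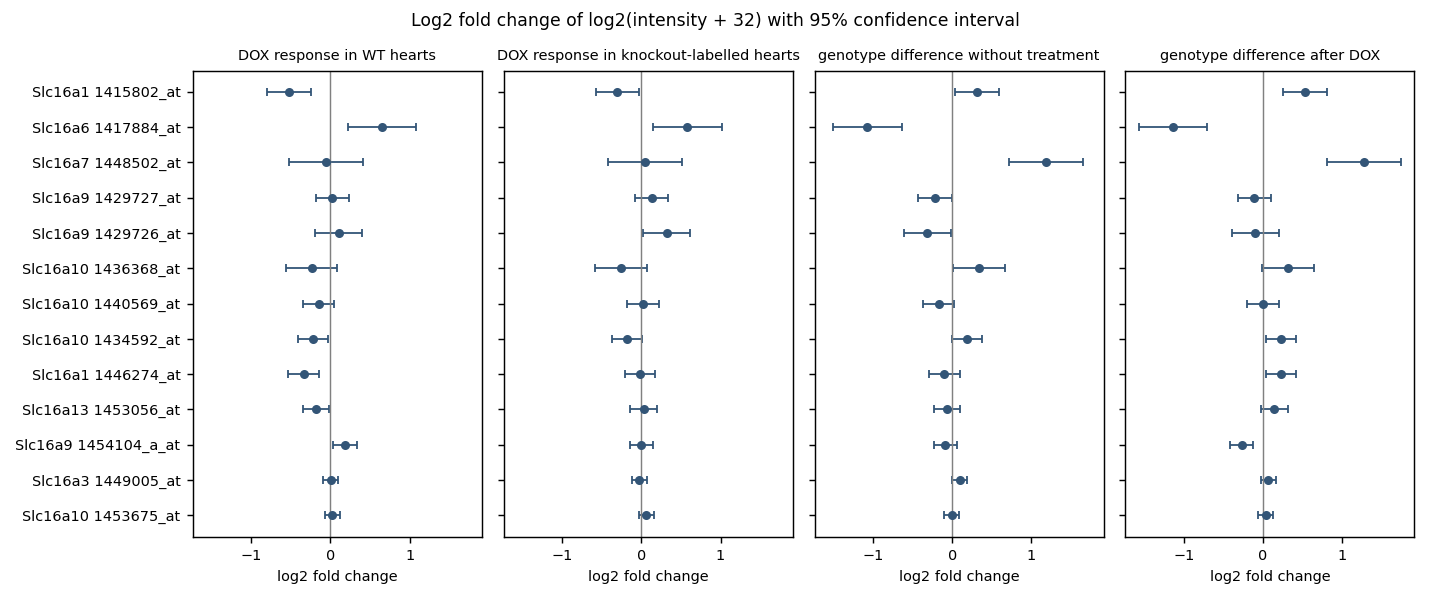
Log2 fold change of each of the 13 probe sets, in order of mean intensity, in the DOX response of WT hearts, the DOX response of knockout-labelled hearts, and the knockout-labelled minus WT difference without and after DOX; bars are 95% confidence intervals. Slc16a6 and Slc16a7 stand apart from the other probe sets in both genotype panels, at -1.07 and 1.18 without treatment.

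The probe sets whose pattern over the 12 hearts was most like that of Slc16a6 and Slc16a7 were sought by the root mean square difference of log2 values, each centred on its own mean, among 11918 probe sets with a mean of at least 100. The other members spanned less than 1 on the log2 scale between group means and were left out of this search. Closest to Slc16a6 were Retreg1, which encodes a receptor for autophagy of the endoplasmic reticulum (0.22), Serpinb6b, a serine protease inhibitor (0.23), and Eif4ebp1, a repressor of translation initiation (0.24). Closest to Slc16a7 were Armh4 (0.30), Mmp2, the matrix metalloproteinase gelatinase A (0.31), and Stbd1, a glycogen-binding protein (0.31). As this search used the same hearts, the values of these genes are a description. The log2 differences of Retreg1, Serpinb6b and Eif4ebp1 without treatment were -0.96, -1.11 and -0.73, beside -1.07 for Slc16a6. Those of Armh4, Mmp2 and Stbd1 were 0.79, 0.69 and 1.20, beside 1.18 for Slc16a7.

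**Figure D4:**
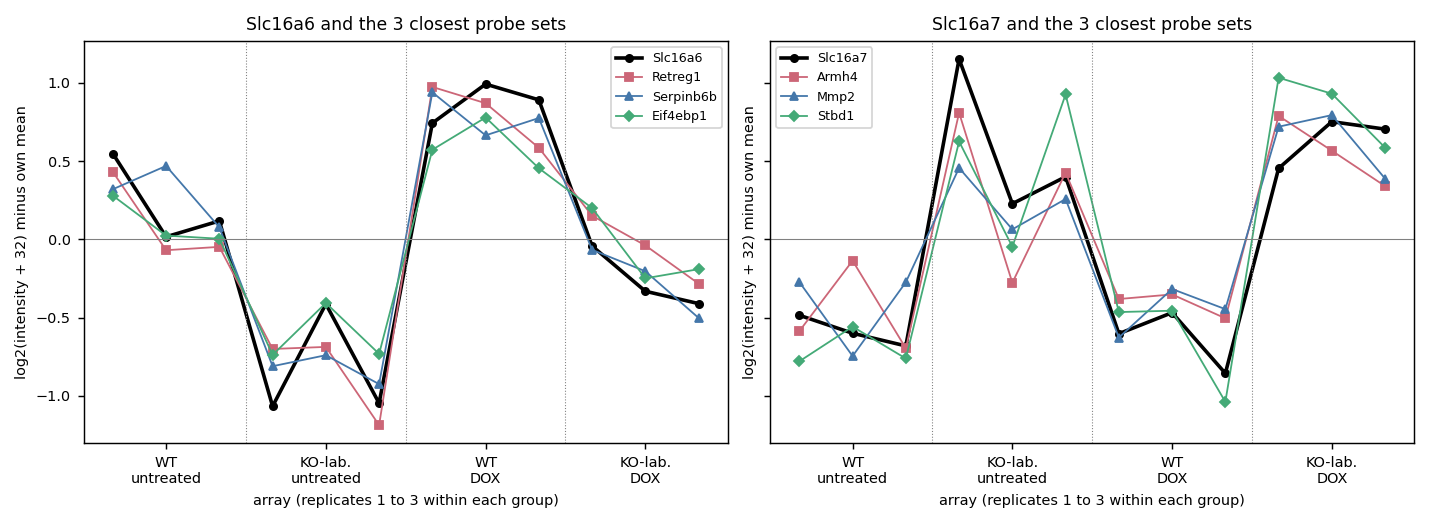
Log2(intensity + 32) minus the probe set's own mean for Slc16a6 and Slc16a7 (black) and the 3 probe sets closest to each, over the 12 hearts in their 4 groups; lines join hearts only to guide the eye. Slc16a6 and its 3 closest probe sets are lowest in untreated knockout-labelled and highest in DOX-treated WT hearts, and Slc16a7 and its 3 closest lie higher in most knockout-labelled than in WT hearts.

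The partner proteins of the carriers and the other genes of the pathway were read from lists, each gene on its brightest probe set. The other SLC16 genes, of which 6 of 7 were measured, had 0 of 6 called by limma in every comparison (at most 2 of 6 at an unadjusted p under 0.05), with medians of -0.01 and 0.06 for the DOX responses in WT and knockout-labelled hearts and of -0.02 and 0.00 for the genotype differences without and after DOX. Of the partners and other monocarboxylate carriers, 1 of 6 measured was called, and it was Nptn, which encodes neuroplastin, a relative of basigin. Nptn fell after DOX in WT hearts from 924 ± 50.5 to 732 ± 54.7 (SD, n = 3; log2 response -0.32, adjusted p = 0.039 from limma). In knockout-labelled hearts it fell from 1218 ± 14.1 to 916 ± 79.7 (SD, n = 3), a log2 response of -0.40 (adjusted p = 0.023 from limma), and without treatment it was higher in knockout-labelled hearts (0.39, adjusted p = 0.027 from limma). Bsg, the gene of basigin, had a mean of 5017 and log2 differences of -0.14, -0.11, 0.04 and 0.07 in the 4 comparisons, and Emb, the gene of embigin, had a mean of 36.0 and differences between -0.02 and 0.06. Neither was called.

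Among 16 lactate and pyruvate enzymes, 2 were called, both higher after DOX in knockout-labelled hearts. Ldhd, a mitochondrial D-lactate dehydrogenase, rose by a log2 response of 0.71 (adjusted p = 0.016 from limma) and Pdk1, a kinase that inhibits pyruvate dehydrogenase, by 0.63 (adjusted p = 0.039 from limma). Their responses in WT hearts were 0.25 and 0.26, and the interaction term called neither. Pdk4 had a larger response in WT hearts, 1.57, that missed the threshold (adjusted p = 0.059 from limma), with means of 3025 ± 1282 untreated and 8608 ± 1290 after DOX (SD, n = 3). Of 7 measured ketone body and acetate enzymes, 1 was called, Acss1, a mitochondrial acetyl-CoA synthetase, which rose after DOX by 0.92 in WT and 1.02 in knockout-labelled hearts (adjusted p = 0.024 and 0.018 from limma). Of 13 hypoxia-linked genes, 1 was called, Bnip3, a mitophagy receptor, which rose by 1.44 and 0.83 (adjusted p = 0.0034 and 0.019 from limma). The list went both ways after DOX, with 7 higher and 6 lower in WT hearts and 8 and 5 in knockout-labelled hearts. Hk2 had a log2 response of -0.80 in WT hearts that missed the threshold (adjusted p = 0.0504 from limma).

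None of 11 genes of thyroid hormone and aromatic amino acid handling was called by limma in any comparison, with at most 3 of 11 at an unadjusted p under 0.05. Of 8 carnitine and creatine genes, Gamt, which makes creatine, fell after DOX in WT hearts from 42.4 ± 1.62 to 24.8 ± 4.25 (SD, n = 3; log2 response -0.39, adjusted p = 0.044 from limma). In that list Slc25a20, the mitochondrial carnitine-acylcarnitine carrier, was lower in untreated knockout-labelled hearts (2106 ± 271 against 3547 ± 259, SD, n = 3; log2 difference -0.75, adjusted p = 0.020 from limma). Over these 7 lists together, limma called 4 of 67 measured genes in the DOX response of WT hearts, against 3.06% of all probe sets. In knockout-labelled hearts it called 5, against 2.2%, and without treatment 2 differed between the genotypes, against 1.81%. Fitted to 1 probe set per gene, limma called 944, 864 and 755 of 18193 in these 3 comparisons. After DOX, the genotypes differed in none of the 67 genes by limma's adjusted p, where 0.941% of all probe sets passed (424 of 45037). At an unadjusted p under 0.05 there were 16 of the 67, against 15.5% of all probe sets. The lists hold only the brightest probe set of a gene. When limma was fitted to 1 probe set per gene, 416 of 18193 were called and 3281 had an unadjusted p under 0.05. The count of 424 was 19 without replicate 2 of the DOX-treated knockout-labelled hearts and 893 without WT DOX replicate 3.

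**Figure D5:**
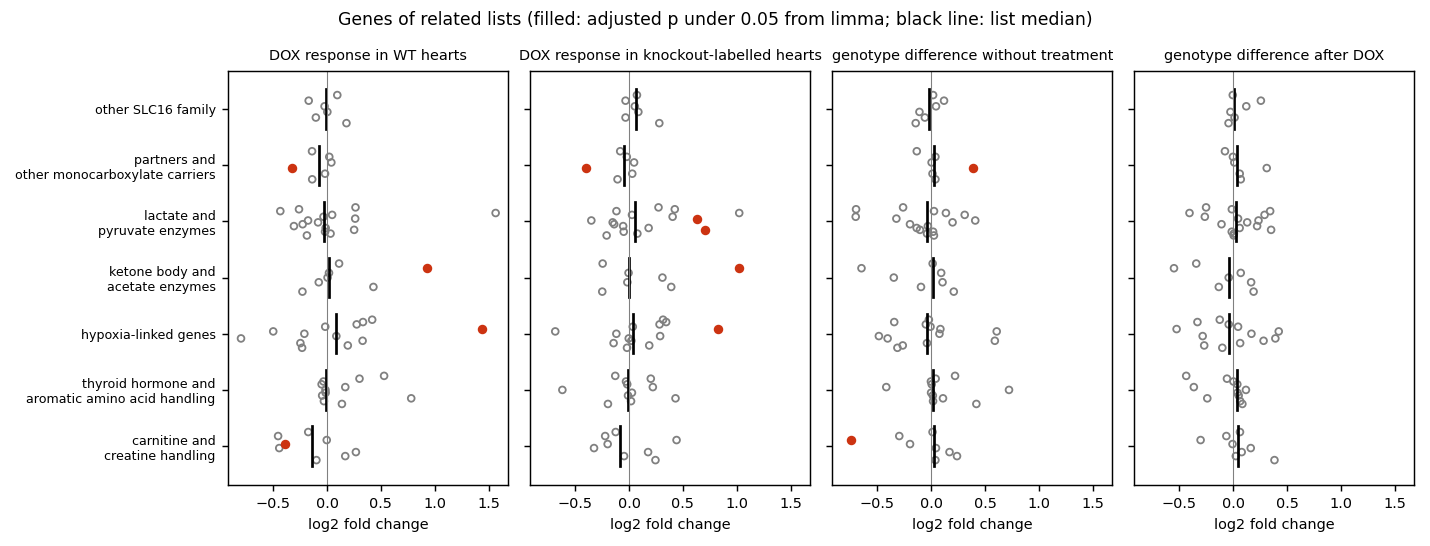
Log2 fold change of each measured gene of the 7 lists in the 2 DOX responses and the 2 genotype differences; filled points passed an adjusted p under 0.05 from limma and the black line is the list median. Nptn, Acss1 and Bnip3 are filled in both DOX responses, and the medians of all lists lie between -0.14 and 0.08.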

How the data were processed

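Total RNA of whole mouse hearts was hybridised to 12 Affymetrix arrays. The authors deposited 1 table of intensities on a linear scale, made per the labels with Affymetrix Expression Console, whose version, summary method and normalization are not given in the sources used here. Intensities ran from 3.28 to 27119, and the number of arrays limits the precision. Groups came from the labels, and no 2 arrays of a group shared more than 0.253% identical values. Probe sets were named through the platform annotation, with 34945 naming 1 gene, 932 several and 9160 none, and genes were named through RefSeq. Gene order, used for neighbours alone, came from RefSeq. No coordinates or sequences are printed.

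Values were taken as log2(intensity + 32), all probe sets were kept, and limma 3.58.1 in R 4.3.3 fitted 4 group means to the 12 arrays. Contrasts gave the 2 DOX responses, the genotype differences without and after DOX (knockout-labelled minus WT) and their interaction. P-values were adjusted by Benjamini-Hochberg over all 45037 probe sets and called under 0.05. The 4 groups share 1 estimate of the spread. The script was tested on simulated data. The members and the gene lists were chosen with earlier results of these data known. Named were every member probe set, Stub1, up to 3 called genes per list, direction and comparison, the 3 probe sets most like each member that spanned at least 1 log2, and nearest neighbours. Bsg, Emb, Pdk4 and Hk2 were named after their values were seen, as were the cell markers that passed the test. Of the lists, 119 of 133 genes were measured, in 7 pathway lists and 10 marker lists. The 4 measured neutrophil and 4 lymphocyte markers had none called in any comparison. Neutrophil sums varied widely between hearts, from 248 to 4893 in untreated knockout-labelled and from 512 to 6412 in DOX-treated WT hearts. Of the 4 lymphocyte markers, 3 had a mean under 32. Erythroid sums in knockout-labelled hearts were 85.0 to 345 without treatment and 40.4 to 51.0 after DOX, with none called. Alternatives were other normalizations, added values and variance models, array weights, a replicate block, removal of dim probe sets (mean under 64), separate fits, 1 probe set per gene, the methods' t-test, and each array left out in turn.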

Additional observations from a re-analysis of the deposited data

How the results depend on the processing

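The number of transporter probe sets called in the DOX response of WT hearts, 0 of 13 by limma, became 1 with quantile normalization, with 16 added in place of 32, with array weights and with 1 probe set per gene, and 2 with 1 added, with dim probe sets left out and with a trended and robust variance. It ranged from 0 to 2 when each heart was left out, reaching 2 without WT DOX replicate 3. In knockout-labelled hearts it was 0 in the other settings and 0 to 1 with a heart left out. The 2 calls of the genotype difference without treatment became 0 when the 6 arrays were fitted alone and by the methods' t-test (adjusted p = 0.36 for Slc16a6 and 0.35 for Slc16a7, with 5 of 13 at an unadjusted p under 0.05 by that t-test), and 0 to 2 with a heart left out. After DOX, non-overlapping probe sets went from 7 to 4 when dim probe sets were left out, which tested fewer members, and from 7 to 10 with a heart left out. The interaction called none of the 13 in any setting. No result reversed. Values called in neither setting changed sign in 57 instances.

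The replicate block kept both calls without treatment (adjusted p = 0.047 for Slc16a6 and 0.042 for Slc16a7 from limma) and gave 0 calls in WT hearts, where Slc16a1 had an adjusted p of 0.086. A check of the replicate numbers did not show paired hearts. The median correlation was 0.038 for 18 pairs of the same number (range -0.25 to 0.15) and -0.01 for 36 pairs of other numbers (-0.29 to 0.28). With 3 hearts in a group this check cannot exclude pairing.

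Over all probe sets the counts of calls moved more. Array weights raised that of the DOX response in WT hearts from 1379 to 2555. Separate fits lowered that of knockout-labelled hearts from 990 to 79 that of the genotype difference without treatment from 817 to 206 and that after DOX from 424 to 2. With 1 heart left out the 4 counts ranged from 41 to 2285, from 116 to 1090, from 84 to 1206 and from 19 to 893. The methods' t-test called 4, 0, 3 and 0 (6756, 5349, 4966 and 5292 at an unadjusted p under 0.05). The cause was not tested. Signals near background limit Slc16a3, Slc16a13 and the dim probe sets of the other genes.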

Other observations

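The genes next to Slc16a6 and Slc16a7 on the chromosome were read as well, with the order of genes taken from RefSeq. Amz2 and Arsg, the neighbours of Slc16a6, had log2 differences of -0.25 and -0.00 between untreated knockout-labelled and WT hearts (adjusted p = 0.17 and 0.99 from limma), beside -1.07 for Slc16a6. The Arsg probe set was dim, with a mean of 23.1. Tafa2 and Lrig3, the neighbours of Slc16a7, had -0.41 and 0.14 (adjusted p = 0.57 and 0.59 from limma), beside 1.18 for Slc16a7, both on probe sets with a mean under 32. None of the 14 nearest neighbours of the 7 genes passed the test in either DOX response or in either genotype difference. Slc16a11, the neighbour of Slc16a13 and itself a family member, had log2 differences of -0.02, 0.05, 0.04 and 0.12 in these 4 comparisons.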
